A study of Mus musculus with 12 samples.

Results

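The genes described here are 10 genes of the Notch pathway out of 54532 genes in the deposited table. They are 3 receptors (Notch1, Notch2 and Notch3), 3 ligands (Jag1, Jag2 and Dll1) and 4 target genes (Hes1, Hey1, Hey2 and Heyl). They were matched by gene name, and the set was chosen by the measured fall of Heyl after siCCNF, which was among the largest in that comparison. The differences between siCCNF and siCONTROL are therefore given as a description without a test. C2C12, a mouse myoblast line able to form myotubes, was transfected with 30 nM siRNA and kept for 48 h before RNA was taken. There were 4 groups with 3 biological replicates in each, namely control cells (siCONTROL), cells depleted of Keap1 mRNA (siKEAP1) or of Ccnf mRNA (siCCNF), and cells depleted of both (siKEAP1/siCCNF). KEAP1 is the substrate adaptor through which a CUL3 ubiquitin ligase recognizes the transcription factor NRF2, and CCNF (cyclin F) is a substrate adaptor of an SCF ubiquitin ligase. The study asked how depletion of either, or of both, changed gene expression in myoblasts. All groups are 1 cell line with transient, partial depletion, and whether siKEAP1/siCCNF cells received 30 nM in all or of each siRNA is not given in the sources used here.

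Notch receptors are single-pass membrane proteins that bind Delta and Jagged ligands on neighbouring cells. Binding exposes the receptor to ADAM proteases and then to γ-secretase, and the released intracellular domain joins the DNA-binding protein RBPJ and a Mastermind coactivator to switch on HES and HEY genes, which encode bHLH transcriptional repressors. In muscle, Notch signalling is known for keeping satellite cells and myoblasts undifferentiated, and Heyl is known as a Notch target in satellite cells.

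Of the 10 genes, 7 were found in the RefSeq promoter table (build GRCm38.p6), with 8 windows that run from 250 bases before to 50 bases after a gene start. Hes1, Hey1 and Heyl were not found there, so Hey2 was the only target gene searched. The letters TGGGAA, the core bound by RBPJ, were searched on both strands. Of the 8 windows only that of Hey2 held them, while 25.6% of 32817 promoters of the same length did. Neither TGACNNNGC, the core of the antioxidant response element bound by NRF2 (12.4% of promoters), nor TTTGGCGC or TTTCGCGC, which are E2F sites (0.814% of promoters), was in any of the 8. Absence of these letters says only that they are not in this window. The 3 windows shown are those of the 2 Jagged ligands, whose mRNA levels moved in opposite directions after siCCNF, and that of Hey2. They lie at chr2:137116471-137116770, chr12:112929446-112929745 and chr10:30842734-30843033, all on the minus strand, and are written 5′ to 3′ with RBPJ cores in either orientation in capitals. The Hey2 matches begin 207 bases and 3 bases before the gene start, the first of them on the strand opposite to the gene.
Jag1: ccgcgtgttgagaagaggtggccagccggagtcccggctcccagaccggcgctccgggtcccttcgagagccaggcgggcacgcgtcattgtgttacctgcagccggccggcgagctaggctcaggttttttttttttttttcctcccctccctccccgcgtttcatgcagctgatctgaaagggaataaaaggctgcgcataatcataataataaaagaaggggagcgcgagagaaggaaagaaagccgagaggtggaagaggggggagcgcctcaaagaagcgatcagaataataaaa
Jag2: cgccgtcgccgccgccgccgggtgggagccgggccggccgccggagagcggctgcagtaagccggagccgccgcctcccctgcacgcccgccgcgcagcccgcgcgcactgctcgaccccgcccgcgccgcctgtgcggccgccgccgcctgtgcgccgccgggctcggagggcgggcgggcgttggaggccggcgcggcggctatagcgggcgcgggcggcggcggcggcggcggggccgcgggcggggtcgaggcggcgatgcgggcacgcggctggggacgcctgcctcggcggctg
Hey2: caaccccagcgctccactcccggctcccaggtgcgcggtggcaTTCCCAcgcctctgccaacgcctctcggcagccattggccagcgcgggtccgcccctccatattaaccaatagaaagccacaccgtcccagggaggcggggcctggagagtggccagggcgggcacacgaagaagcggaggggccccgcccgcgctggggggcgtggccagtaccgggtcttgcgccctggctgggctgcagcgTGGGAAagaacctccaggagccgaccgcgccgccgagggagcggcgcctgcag
The Jag2 window held 86.0% G and C and the Jag1 window 55.7%, where the median of all promoters was 52.7%. The Jag1 window was thus near that median, and those of Hey2 (72.0%), Notch1 (68.3%), Notch2 (73.0%) and Notch3 (70.0%) lay between the Jagged ligands.

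Each library held between 18464209 and 37743198 counts on genes, and the 3 siCCNF libraries were the deepest as a group (26039296 to 37743198). Keap1 averaged 87.8 ± 3.05 CPM (counts scaled to library size, mean ± SD, n = 3) in siCONTROL, 12.6 ± 0.279 in siKEAP1, 85.1 ± 4.35 in siCCNF and 24.1 ± 2.56 in siKEAP1/siCCNF. Ccnf averaged 81.1 ± 3.99, 59.4 ± 4.83, 20.5 ± 0.778 and 24.5 ± 1.01 CPM in the same order. Both siRNAs thus lowered their target in every library, but the double depletion held 191% of the Keap1 mRNA of siKEAP1 alone (quasi-likelihood test of edgeR, p adjusted by Benjamini-Hochberg over all genes tested, hereafter edgeR adjusted p = 1.07e-06), so siKEAP1/siCCNF and siKEAP1 do not differ in Ccnf only. The 6 myoblast markers summed to 614.5 CPM or more in every library. The sums for osteoblast, endothelial and leukocyte markers were at most 3.34, 2.04 and 10.1 CPM, with Ibsp and Cd3e at 0 in all 12 libraries, and adipocyte markers summed to between 6.68 and 34.4 CPM with Adipoq and Plin1 at 3 counts or fewer throughout. The adipocyte (29.7 to 34.4 CPM), leukocyte (5.39 to 10.1 CPM) and endothelial (1.45 to 2.04 CPM) sums were highest in siKEAP1, and their part in the values of siKEAP1 was not tested. In siKEAP1 the adipocyte sum was mostly Pparg (mean 30.0 CPM, with Fabp4 at 2.64). The leukocyte sum was nearly all Cd68 (mean 7.34 CPM), with Ptprc at 3 counts or fewer. Within their groups, siCONTROL replicate 1 and siKEAP1/siCCNF replicate 3 stood apart. Their deviations from the group mean ran with transcript length across 15122 genes (r = -0.31 and -0.28, against -0.094 to 0.21 in the other libraries), with long genes lower, and results are given with and without them where they matter. Because these are bulk libraries, fewer cells of a type and less RNA per cell cannot be told apart.

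Levels were compared between genes as FPKM, which the authors scaled by transcript length and depth. In siCONTROL the order was Notch3 (22.9 ± 2.92 FPKM, SD, n = 3), Notch2 (21.0 ± 5.79), Hes1 (19.6 ± 6.35), Jag2 (12.5 ± 0.828), Dll1 (5.04 ± 0.876), Notch1 (4.99 ± 1.27), Heyl (3.00 ± 1.14), Hey1 (1.59 ± 0.376) and Jag1 (1.08 ± 0.258). Values of the first 3 overlapped, as did those of Dll1 with Notch1, Notch1 with Heyl, and Hey1 with Jag1. Hey2 held between 0 and 3 counts in each of the 12 libraries. It was at the floor of 3 counts (0.0805 to 0.163 CPM, depending on depth) in all groups, was not tested, and no fold is given for it. The other 9 genes passed the filter on low counts, which kept 15122 genes. Heyl was the lowest of them in the double depletion, with 8 to 21 counts per library.

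**Figure D1:**
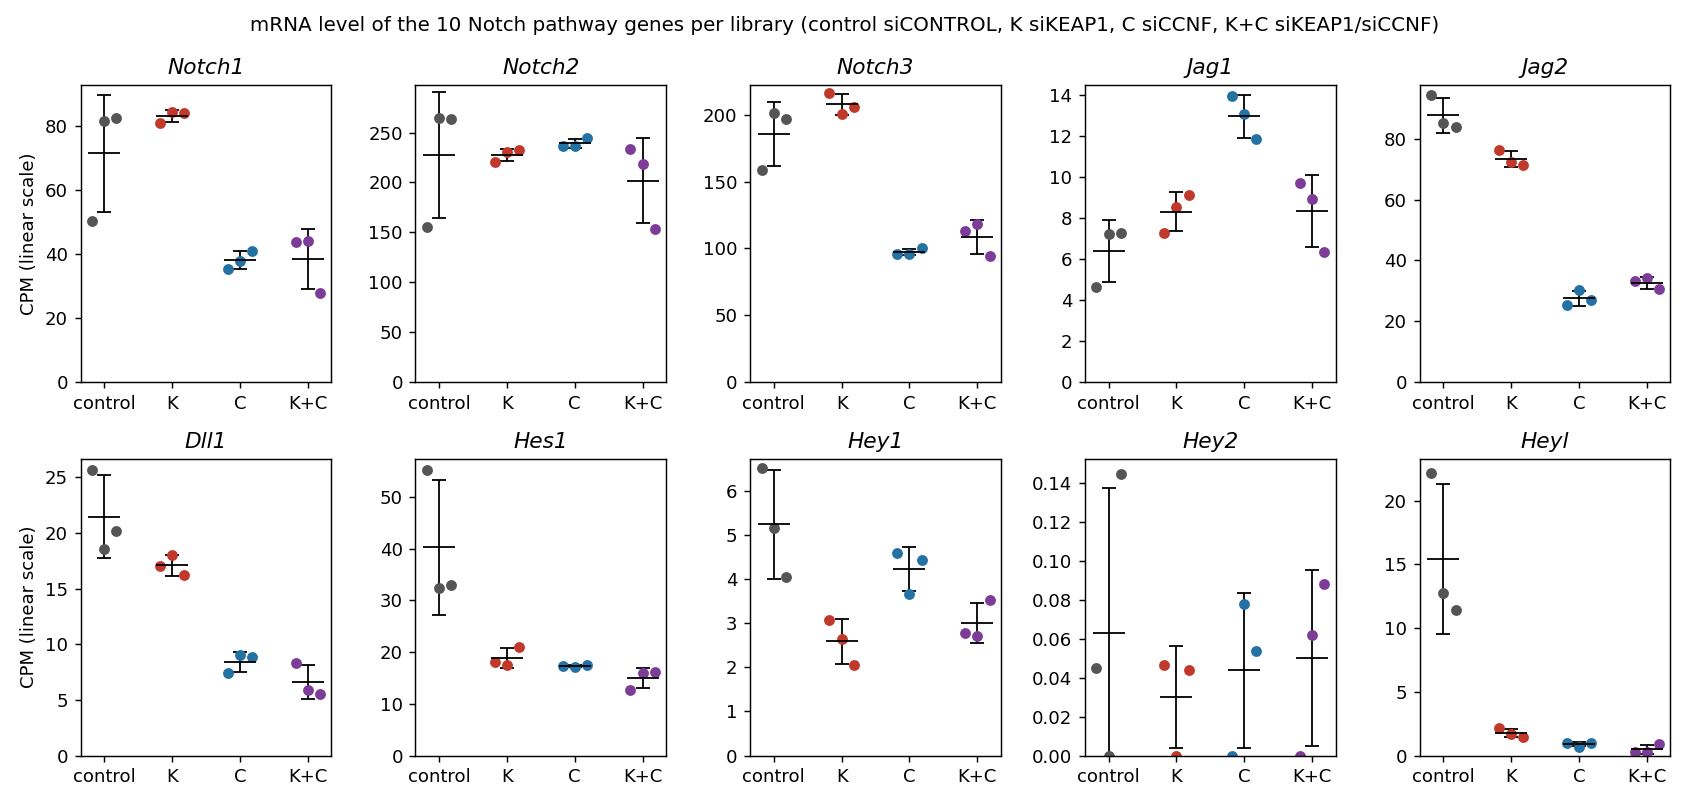
CPM (linear y axis from 0) of each of the 10 genes in the 12 libraries, with points ordered by replicate within each group, and with the group mean (horizontal bar) and SD (whiskers, n = 3). Jag2 and Heyl in both groups with siCCNF lie below all siCONTROL and siKEAP1 libraries, Jag1 in siCCNF lies above all other libraries, and Hey2 stays under 0.15 CPM.

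The receptors are encoded by Notch1 (chr2:26457903-26516663, minus strand, GRCm38), Notch2 (chr3:98013527-98150361, plus strand) and Notch3 (chr17:32120820-32166880, minus strand). Notch1 was at 50.5, 81.8 and 82.6 CPM in siCONTROL, 81.2, 84.5 and 84.3 in siKEAP1, 35.5, 37.9 and 41.0 in siCCNF, and 43.8, 44.1 and 27.7 in siKEAP1/siCCNF. All 6 libraries with siCCNF were below all 6 without it, and replicate 1 of siCONTROL and replicate 3 of siKEAP1/siCCNF were the low ones of their groups. Such separations, here and for the genes below, include the libraries that chose the set. The share of all genes that separate in the same way is not given here. Notch3, a receptor known from satellite cells and vascular smooth muscle, was at 159, 202 and 197 CPM in siCONTROL and 216, 201 and 206 in siKEAP1. It was at 95.8, 96.0 and 100.3 CPM in siCCNF and 113, 118 and 94.3 in siKEAP1/siCCNF, again with no overlap between libraries with and without siCCNF. Notch2 was at 155, 265 and 263 CPM in siCONTROL, 221, 231 and 232 in siKEAP1, 237, 236 and 244 in siCCNF, and 233, 218 and 153 in siKEAP1/siCCNF. For Notch2, siCONTROL and siKEAP1/siCCNF each spanned the siKEAP1 values, and siCCNF lay just above both siKEAP1 and siKEAP1/siCCNF.

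Of the ligands, Jag2 (chr12:112907819-112929776, minus strand) had the highest mRNA level. It was at 94.4, 85.2 and 83.8 CPM in siCONTROL, 76.3, 72.4 and 71.3 in siKEAP1, 25.4, 30.3 and 27.1 in siCCNF, and 33.3, 34.3 and 30.4 in siKEAP1/siCCNF. The siKEAP1 libraries lay below siCONTROL, and both groups with siCCNF lay lower again. Dll1 (chr17:15367354-15376872, minus strand), the Delta-like ligand that is needed to maintain muscle progenitors in the embryo, was at 25.6, 18.6 and 20.1 CPM in siCONTROL and 17.0, 18.03 and 16.2 in siKEAP1. It was at 7.38, 9.02 and 8.83 CPM in siCCNF and 8.33, 5.85 and 5.58 in siKEAP1/siCCNF, below every library without siCCNF. Jag1 (chr2:137081456-137116644, minus strand) went the other way, at 4.62, 7.22 and 7.27 CPM in siCONTROL, 7.25, 8.55 and 9.12 in siKEAP1, 13.9, 13.1 and 11.8 in siCCNF, and 9.68, 8.93 and 6.33 in siKEAP1/siCCNF. Its siCCNF libraries lay above all others, and those of the double depletion overlapped siKEAP1.

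Among the targets, Hes1 (chr16:30064384-30067796, plus strand), an oscillating repressor that is the best known Notch target, was at 55.2, 32.4 and 32.9 CPM in siCONTROL. It was at 18.02, 17.4 and 21.0 CPM in siKEAP1, 17.2, 17.2 and 17.6 in siCCNF, and 12.7, 16.0 and 16.2 in siKEAP1/siCCNF, so every depleted library was below every control. Hey1 (chr3:8663359-8667256, minus strand) was at 6.50, 5.15 and 4.05 CPM in siCONTROL, 3.07, 2.63 and 2.06 in siKEAP1, 4.59, 3.65 and 4.43 in siCCNF, and 2.78, 2.71 and 3.51 in siKEAP1/siCCNF. Its siCCNF libraries overlapped siCONTROL, and the siKEAP1 and double-depleted libraries did not. Heyl (chr4:123233556-123249875, plus strand), the HEY-like repressor, was at 22.2, 12.8 and 11.4 CPM in siCONTROL and 2.14, 1.70 and 1.49 in siKEAP1. It was at 0.998, 0.700 and 1.02 CPM in siCCNF and 0.317, 0.277 and 0.923 in siKEAP1/siCCNF, the last 3 values resting on 8, 9 and 21 counts. The 4 groups of Heyl followed each other in that order, and only siCCNF and siKEAP1/siCCNF overlapped.

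After siCCNF alone, compared with siCONTROL, 7 of the 9 genes had a log2 fold change below 0 and 2 above it, with a median of -0.93 where the median of all 15122 genes was 0.013. Heyl changed most, by -4.07 ± 0.34 (log2 fold change ± standard error), to 5.97% of siCONTROL. The falls were ranked among genes with at least 1 log2 CPM on average and no overlap between these groups. An edgeR adjusted p under 0.05 was also required, as a filter only. Heyl had rank 3, with Dio2 (-4.08) just above it and Car3 (-4.05) just below. Jag2 was at -1.67 ± 0.082, Dll1 at -1.35 ± 0.16 and Hes1 at -1.22 ± 0.18. The receptors Notch3 and Notch1 were at -0.93 ± 0.098 and -0.91 ± 0.19, and Hey1 was at -0.31 ± 0.20. Notch2 was at 0.071 ± 0.18, and Jag1 at 1.03 ± 0.19, or 204% of siCONTROL. Without siCONTROL replicate 1, Hes1 was at -0.92.

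The effect of siCCNF in KEAP1-depleted cells (siKEAP1/siCCNF against siKEAP1) was measured between groups other than those that chose the set. All 9 genes were tested there. The spread behind the p-values was estimated from all libraries, including those that chose the set. Both receptors Notch1 and Notch3, both ligands Jag2 and Dll1, and the target Heyl fell, which is 5 of 9 lower and 0 higher. Over all genes tested, 26.9% were lower and 24.1% higher, with a median log2 fold change of 0.0013, where that of the 9 Notch genes was -0.94. Heyl fell by 1.87 ± 0.44 on the log2 scale, to 27.3% of siKEAP1 (edgeR adjusted p = 0.00294). Leaving out siKEAP1/siCCNF replicate 3 took this to -2.56, and on the log2(FPKM + 1) scale with limma the change was -0.29 with an adjusted p of 0.117, a scale on which the added 1 is larger than every siKEAP1 value of Heyl. Dll1 fell by 1.38 ± 0.16 (edgeR adjusted p = 1.27e-05), to 38.5% of siKEAP1. Jag2 fell by 1.16 ± 0.081 (edgeR adjusted p = 1.08e-07), to 44.6%. Notch1 fell by 1.11 ± 0.19 (edgeR adjusted p = 2.57e-04) and Notch3 by 0.94 ± 0.098 (edgeR adjusted p = 4.65e-06). These 4 passed under every alternative and without either or both of the libraries that stood apart. The log2 fold change of Notch2 was -0.18 ± 0.18 (edgeR adjusted p = 0.437), of Jag1 0.0050 ± 0.18 (0.984), of Hey1 0.21 ± 0.21 (0.441) and of Hes1 -0.33 ± 0.18 (0.147). Hes1 passed when only the compared groups were fitted (-0.33, edgeR adjusted p = 0.0472), without siCONTROL replicate 1 (-0.33, edgeR adjusted p = 0.0137), and without both of those libraries (-0.38, edgeR adjusted p = 0.00561), with 6 genes lower in each case.

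**Figure D2:**
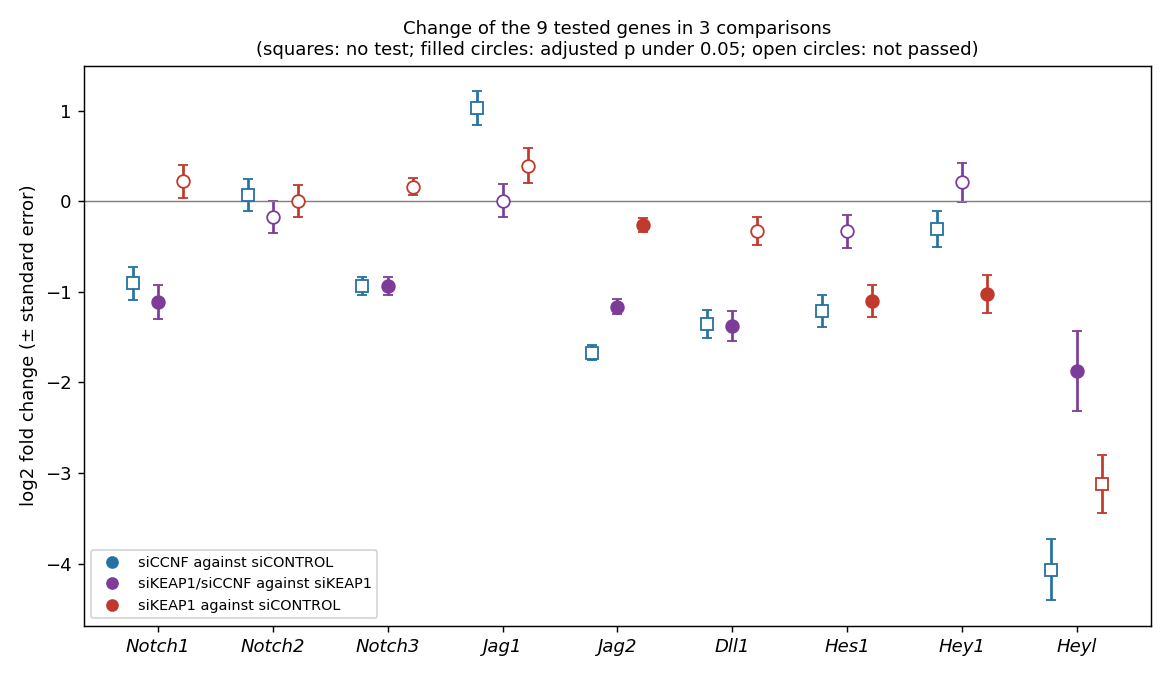
Log2 fold change (y axis, ± standard error) of the 9 tested genes in siCCNF against siCONTROL (blue squares, no test), siKEAP1/siCCNF against siKEAP1 (purple) and siKEAP1 against siCONTROL (red). Filled circles passed an edgeR adjusted p of 0.05, open circles did not, and open squares, including Heyl in red, were not tested. Notch1, Notch3 and Dll1 lie near -1 or below with siCCNF on either background. Hes1 and Hey1 lie near -1 with siKEAP1, and Hes1 also lies at -1.22 in siCCNF against siCONTROL.

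The composition of the receptor and ligand mRNA pools differed between libraries with and without siCCNF. Notch2 made up 42.4 ± 3.64% of the summed FPKM of the 3 receptors in siCONTROL and 60.0 ± 0.367% in siCCNF, and 40.0 ± 1.26% in siKEAP1 and 53.3 ± 2.38% in siKEAP1/siCCNF (SD, n = 3). The lowest share in a library with siCCNF was 51.0% and the highest without it was 44.6%. Jag1 made up 5.91 ± 1.76% of the ligand FPKM in siCONTROL, 8.92 ± 1.18% in siKEAP1, 27.2 ± 3.01% in siCCNF and 18.4 ± 2.09% in siKEAP1/siCCNF. The ratio of Jag2 to Jag1 FPKM was 9.65 to 17.1 in siCONTROL, 6.54 to 8.81 in siKEAP1, 1.52 to 1.94 in siCCNF and 2.88 to 4.03 in siKEAP1/siCCNF, so no 2 groups overlapped. Jag2 remained the ligand with the highest level in every group. In the double depletion, the receptor Notch1 and the ligands Dll1 and Jag1 were at 2.69, 1.55 and 1.42 FPKM, respectively, where the last 2 overlapped. These shares include the comparison that chose the set and are given without a test.

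**Figure D3:**
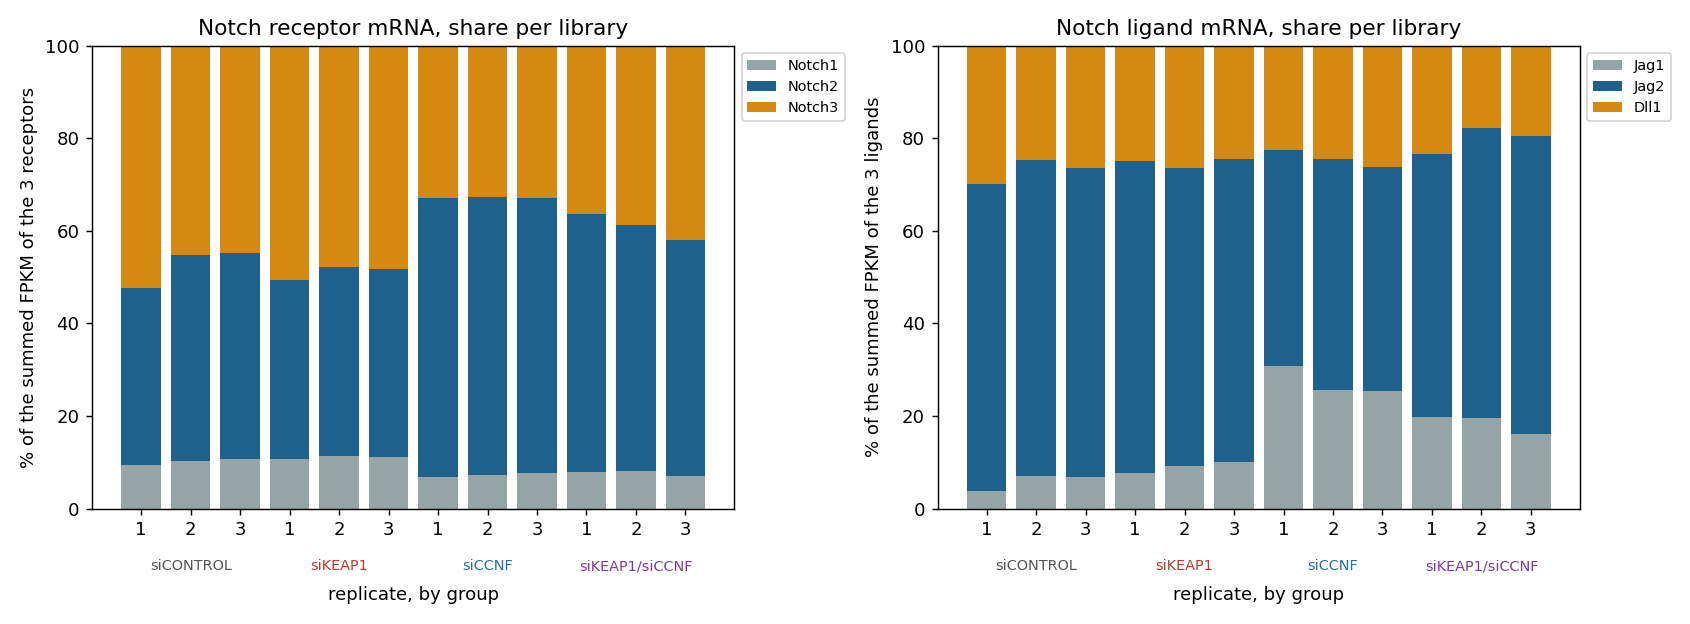
Share (y axis, %) of each gene in the summed FPKM of the 3 receptors (left) and 3 ligands (right), as stacked bars for the 12 libraries by group and replicate. Notch2 takes 51.0% or more of the receptor sum in the 6 libraries with siCCNF, and Jag1 takes its highest ligand shares in siCCNF.

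Depletion of KEAP1 alone (siKEAP1 against siCONTROL) was compared for the genes other than Heyl, whose values shared the siCONTROL libraries that chose it. Hes1 and Hey1 fell, along with Jag2, giving 3 lower and 0 higher of 8 tested, where 20.2% of all genes were lower and 20.4% higher. Hes1 fell by 1.10 ± 0.18 (edgeR adjusted p = 2.67e-04), to 46.7% of siCONTROL, and Hey1 by 1.02 ± 0.21 (edgeR adjusted p = 0.00166), to 49.3%. Jag2 fell by 0.26 ± 0.079 (edgeR adjusted p = 0.0180), a call that was lost without siKEAP1 replicate 2 (0.0526) or replicate 3 (0.0657). The receptors had log2 fold changes of 0.22 ± 0.18 for Notch1, 2.68e-04 ± 0.18 for Notch2 and 0.16 ± 0.097 for Notch3, with edgeR adjusted p of 0.371, 0.999 and 0.211. Jag1 was at 0.39 ± 0.19 and Dll1 at -0.33 ± 0.15 (edgeR adjusted p = 0.126 and 0.105), and Dll1 passed with the gene length trend removed (-0.40, edgeR adjusted p = 0.0387), which made 4 genes lower. Without both libraries that stood apart, Hes1 was at -0.81 and Hey1 at -0.84, both still past the threshold, and Notch2 passed at -0.23 (edgeR adjusted p = 3.18e-04). Heyl, as a description, was at -3.12 ± 0.32, or 11.5% of siCONTROL.

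In the double depletion against siCONTROL, 6 of 8 genes were lower and 0 higher, where 23.6% of all genes were lower and 20.6% higher. Dll1 fell by 1.71 ± 0.16 (edgeR adjusted p = 2.57e-06), Hes1 by 1.43 ± 0.18 (2.96e-05), Jag2 by 1.42 ± 0.081 (4.18e-08), Notch1 by 0.89 ± 0.19 (0.00166), Hey1 by 0.81 ± 0.20 (0.00587) and Notch3 by 0.77 ± 0.098 (3.12e-05). Notch2 and Jag1 were at -0.18 ± 0.18 (edgeR adjusted p = 0.457) and 0.39 ± 0.19 (0.111). Jag1 passed with the gene length trend removed (0.43, edgeR adjusted p = 0.0449) and without siKEAP1/siCCNF replicate 3 (0.55, edgeR adjusted p = 0.0264), and Notch2 without siCONTROL replicate 1 (-0.40, edgeR adjusted p = 0.0192). Without both libraries that stood apart, all 8 passed, with Jag1 at 0.35 (edgeR adjusted p = 0.0493) the only one higher and Notch2 at -0.23 (5.39e-04) lower. Heyl, as a description, was at -5.00 ± 0.38, or 3.13% of siCONTROL, and at -5.69 without siKEAP1/siCCNF replicate 3. This comparison shares the siKEAP1/siCCNF libraries with the preceding test of siCCNF and the siCONTROL libraries with that of siKEAP1, so the 3 sets of values are not independent.

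Adding siKEAP1 to siCCNF (siKEAP1/siCCNF against siCCNF) gave 0 genes past the threshold of 8 tested by edgeR, with 3 at an unadjusted p under 0.05. Over all genes, 3.00% were higher and 2.19% lower. DESeq2 called 2 of the 8 and limma 0. Among the 8 tested genes the largest difference was that of Jag1, at -0.63 ± 0.18 (edgeR adjusted p = 0.0618), which passed with DESeq2 (0.0134). Hey1 was at -0.50 ± 0.20, Dll1 at -0.35 ± 0.16 and Jag2 at 0.25 ± 0.081. The count of 0 also changed with the processing, to 1 with no filter beyond 1 count and to 1 with the gene length trend removed. It changed further with the libraries that stood apart. Without both of them 5 genes passed by edgeR, with Notch3 (0.25), Jag2 (0.29) and Notch1 (0.20) higher and Jag1 (-0.48) and Hey1 (-0.63) lower, and without siCONTROL replicate 1 alone Jag1 passed. Heyl, as a description, was at -0.93 ± 0.46, and at -1.63 without siKEAP1/siCCNF replicate 3.

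The interaction, here the log2 fold change of siKEAP1/siCCNF over siCCNF minus that of siKEAP1 over siCONTROL, passed for 3 of 8 genes, 2 higher and 1 lower, where 10.6% of all genes were higher and 10.5% lower. It includes the siCCNF and siCONTROL libraries that chose the set, so its p-values are not independent of that choice. For Jag1 it was -1.02 ± 0.26 (edgeR adjusted p = 0.0139), with log2 fold changes of 0.39 for siKEAP1 in control cells and -0.63 in CCNF-depleted cells. Read the other way, Jag1 changed by 1.03 after siCCNF in control cells and by 0.0050 in KEAP1-depleted cells. For Jag2 the interaction was 0.51 ± 0.11 (edgeR adjusted p = 0.00643), between -0.26 and 0.25. For Hes1 it was 0.89 ± 0.25 (edgeR adjusted p = 0.0245), between -1.10 and -0.21, and this call was lost when any of 5 libraries was left out. The interaction did not pass for Hey1 (0.52 ± 0.29, edgeR adjusted p = 0.245) or Notch1, Notch2, Notch3 and Dll1, which were between -0.25 and -0.0026. Without both libraries that stood apart, Notch3 passed at 0.20 (edgeR adjusted p = 0.0221). Heyl, as a description, was at 2.19 ± 0.59, and at 1.502 without siKEAP1/siCCNF replicate 3. Keap1 mRNA itself was at 14.4% of siCONTROL in siKEAP1 and at 28.4% of siCCNF in siKEAP1/siCCNF. Its interaction was 0.98 ± 0.11 (edgeR adjusted p = 6.99e-05). The siKEAP1 effects compared here thus also differ in the depth of Keap1 depletion. Ccnf mRNA was at 73.2% of siCONTROL in siKEAP1 (edgeR adjusted p = 2.58e-04), and its interaction was 0.71 ± 0.11 (edgeR adjusted p = 4.42e-04). The part of these differences in Keap1 and Ccnf in the interactions was not tested.

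A list of 54 other Notch pathway genes was described in the same way, and 44 of them were tested. In siKEAP1/siCCNF against siKEAP1, 8 were higher, 12 lower and 24 did not pass, with a median log2 fold change of 0.0033, near the 0.0013 of all genes. In siKEAP1 against siCONTROL, 9 were higher and 7 lower, and in the double depletion against siCONTROL 8 were higher and 11 lower. In siKEAP1/siCCNF against siCCNF, 0 passed by edgeR, 5 had an unadjusted p under 0.05, and DESeq2 called 1. The interaction passed for 5 higher and 6 lower. Of all genes, 24.1% were higher and 26.9% lower in the first comparison, near the shares of the list. In siKEAP1 against siCONTROL, 20.4% of all genes were higher and 20.2% lower. In the double depletion against siCONTROL the shares were 20.6% and 23.6%. They were 3.00% and 2.19% in siKEAP1/siCCNF against siCCNF, and 10.6% and 10.5% in the interaction. Each count is to be read against the shares of its own comparison. Nothing particular to the list is drawn from the counts or from the groups below. The balance of the first count depended on the processing, with 17 higher and 10 lower once the gene length trend was removed and 14 higher and 17 lower without both libraries that stood apart. The interaction count was 8 higher and 6 lower with the length trend removed.

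Among the genes of receptor and ligand cleavage, 3 of 10 were higher and 4 lower in siKEAP1/siCCNF against siKEAP1. Adam17, a sheddase that can cut Notch, was at 178, 175 and 184 CPM in siKEAP1 and 111, 113 and 92.5 in siKEAP1/siCCNF, a fall of 0.76 ± 0.081 (edgeR adjusted p = 5.06e-06). Its siCONTROL libraries were at 116, 135 and 132 CPM and its siCCNF libraries at 103, 106 and 102, so the high group was siKEAP1. Aph1c, a γ-secretase subunit close in sequence to Aph1b, so that shared reads may be split between them, fell by 0.74 ± 0.21 (edgeR adjusted p = 0.0103). Ncstn, which encodes the γ-secretase subunit nicastrin, was at 134, 132 and 137 CPM in siKEAP1 and 212, 203 and 203 in siKEAP1/siCCNF, a rise of 0.62 ± 0.064 (edgeR adjusted p = 4.18e-06). The γ-secretase genes thus moved in both directions.

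Of the 4 glycosylation genes tested, 2 were higher and 1 lower. The fringe glycosyltransferase Lfng, which modifies Notch and alters its response to Jagged and Delta ligands, was at 85.6, 69.2 and 70.6 CPM in siCONTROL and 24.9, 23.7 and 24.7 in siKEAP1. It was at 52.8, 46.8 and 49.1 CPM in siCCNF and 40.0, 35.5 and 42.4 in siKEAP1/siCCNF, and the rise over siKEAP1 was 0.69 ± 0.095 (edgeR adjusted p = 5.38e-05). Rfng, another fringe, rose by 0.36 ± 0.083 (edgeR adjusted p = 0.00257), and Pofut1, the O-fucosyltransferase that primes Notch for fringe, fell by 0.18 ± 0.068 (edgeR adjusted p = 0.0440). Mean levels of Rfng were lowest and those of Pofut1 highest in siKEAP1 among the groups.

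In the group for ubiquitylation and trafficking, 1 of 11 was higher and 3 lower. Neurl1a, a Neuralized ubiquitin ligase, fell by 0.99 ± 0.12 (edgeR adjusted p = 1.48e-05). Dtx2, a Deltex ubiquitin ligase, fell by 0.69 ± 0.083 (edgeR adjusted p = 1.71e-05), and Numb, an endocytic adaptor that antagonizes Notch, fell by 0.50 ± 0.10 (edgeR adjusted p = 0.00107). Dtx2 averaged 29.3 CPM in siCONTROL, 51.8 in siKEAP1, 28.9 in siCCNF and 32.2 in siKEAP1/siCCNF. Numb averaged 18.8, 25.6, 18.1 and 18.1 CPM in the same order, so for both the high group was siKEAP1. Of the nuclear complex, 1 of 15 was higher (Hdac1, a histone deacetylase, at 0.33 ± 0.071) and 2 were lower (the Groucho-type corepressors Tle3, at -0.44 ± 0.064, and Tle1, at -0.33 ± 0.093). The mean level of Hdac1 was lowest in siKEAP1 among the groups. Rbpj, the DNA-binding protein itself, was at 0.073 ± 0.099 (edgeR adjusted p = 0.564). Of the other HES genes and Nrarp, 1 of 6 was tested, Hes6, which was at -0.15 ± 0.20 (edgeR adjusted p = 0.555).

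The remaining receptors and ligands were low. Dlk2, a non-canonical Delta-like protein without the usual receptor-binding domain, was at 1.30, 1.98 and 2.37 CPM in siKEAP1 and 7.14, 6.81 and 5.93 in siKEAP1/siCCNF, a rise of 1.81 ± 0.20 (edgeR adjusted p = 8.36e-06). Its siCONTROL libraries were at 4.84, 5.21 and 3.52 CPM and its siCCNF libraries at 5.45, 5.79 and 6.07, so the low group was siKEAP1. Notch4 and Dner passed in this comparison with a mean under 1 CPM, and Dll3, Dll4 and Dlk1 were not tested.

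**Figure D4:**
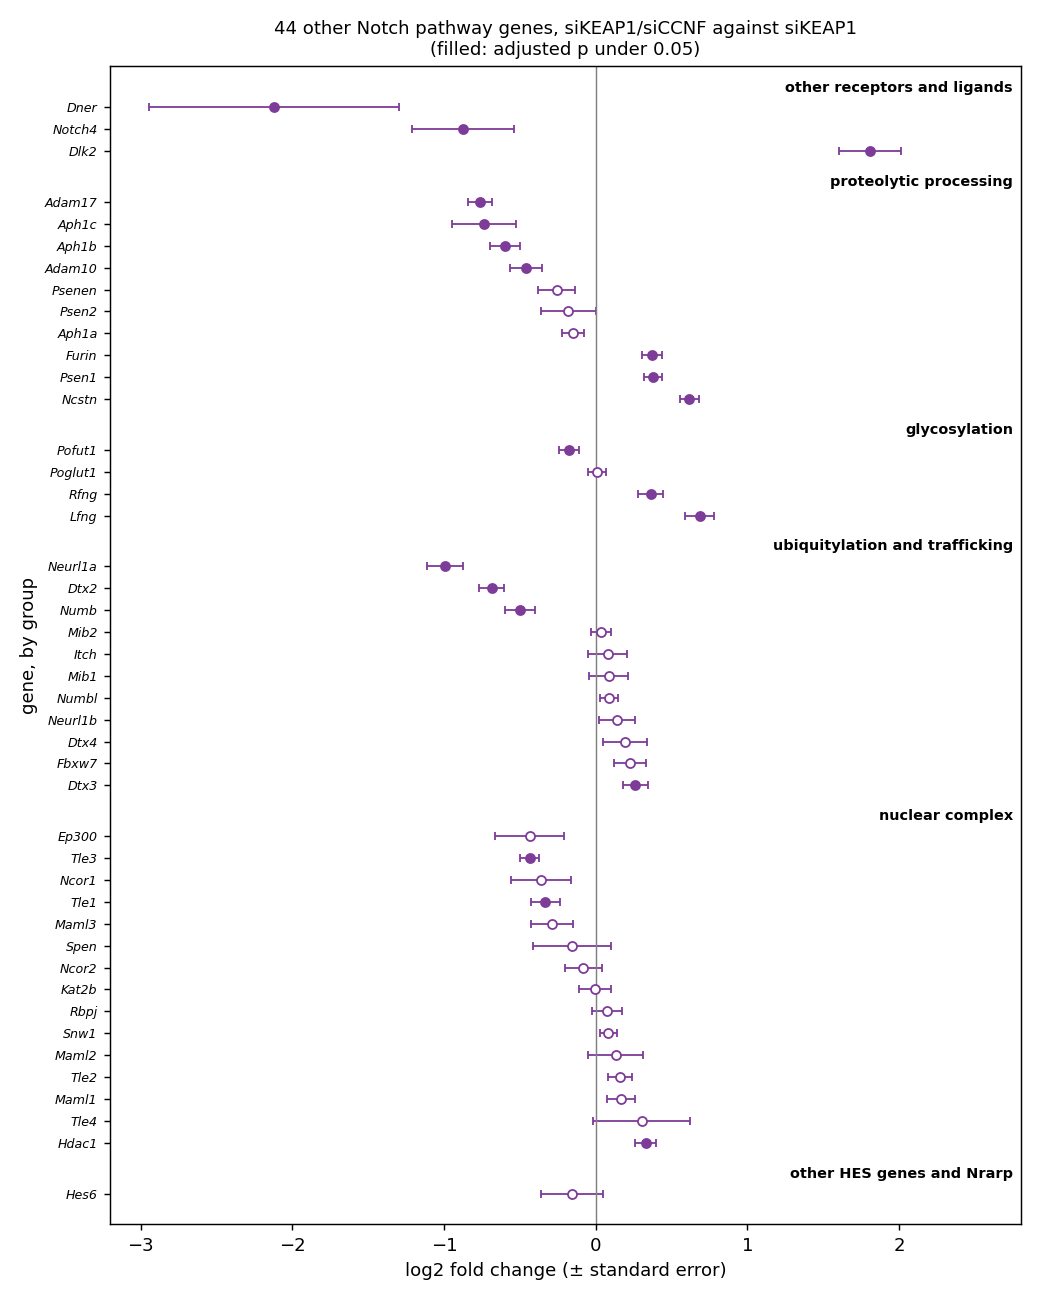
Log2 fold change (x axis, ± standard error) of the 44 tested genes of the wider pathway list in siKEAP1/siCCNF against siKEAP1, by group and ordered by value. The 20 filled points passed an edgeR adjusted p of 0.05, 8 above and 12 below 0, and Rbpj is among the open points near 0.

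The markers of muscle cells differed between the groups, and not all in the way of Heyl. Markers of myogenic differentiation (8 genes such as Myog and Myh3, 7 of them tested, none at 0 in all libraries) summed to 61.6 to 146 CPM in siCONTROL, 3.11 to 3.36 in siKEAP1, 18.2 to 27.5 in siCCNF and 6.53 to 8.17 in siKEAP1/siCCNF. The 6 myoblast markers summed to 1396 to 1615, 858 to 887, 634 to 645 and 614.5 to 704 CPM in the same order. In both sums siCONTROL replicate 1 was the highest library, as it was for Heyl, Hes1, Hey1, Dll1 and Jag2. The myoblast sum was lower in the groups with siCCNF than in siKEAP1, as was Heyl, while the differentiation sum was lower in siKEAP1 than in either group with siCCNF. In siKEAP1/siCCNF against siKEAP1, the myoblast markers Itga7, Myf5 and Des fell (log2 fold changes of -0.995, -0.59 and -0.41, edgeR adjusted p = 2.37e-08, 4.16e-05 and 0.00202). Myod1 rose (0.22, edgeR adjusted p = 0.0397), and Pax7 and Cdh15 were both at -0.13 and did not pass (0.235 and 0.431). Of the differentiation markers, Myog rose by 3.30 (edgeR adjusted p = 0.00155) in that comparison, in which Heyl fell. Actc1 (3.52, edgeR adjusted p = 0.00888), Myh3 (2.15, 0.0360) and Acta1 (1.27, 0.00420) also rose. Mymx (-1.04), Tnnt3 (-0.90) and Mymk (-0.52) were lower and did not pass (edgeR adjusted p = 0.327, 0.197 and 0.491). In siKEAP1, Myog held 3 to 5 counts per library, Myh3 1 to 5 and Actc1 0 to 3. Whether these differences bear on the levels of the Notch genes was not tested.

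**Figure D5:**
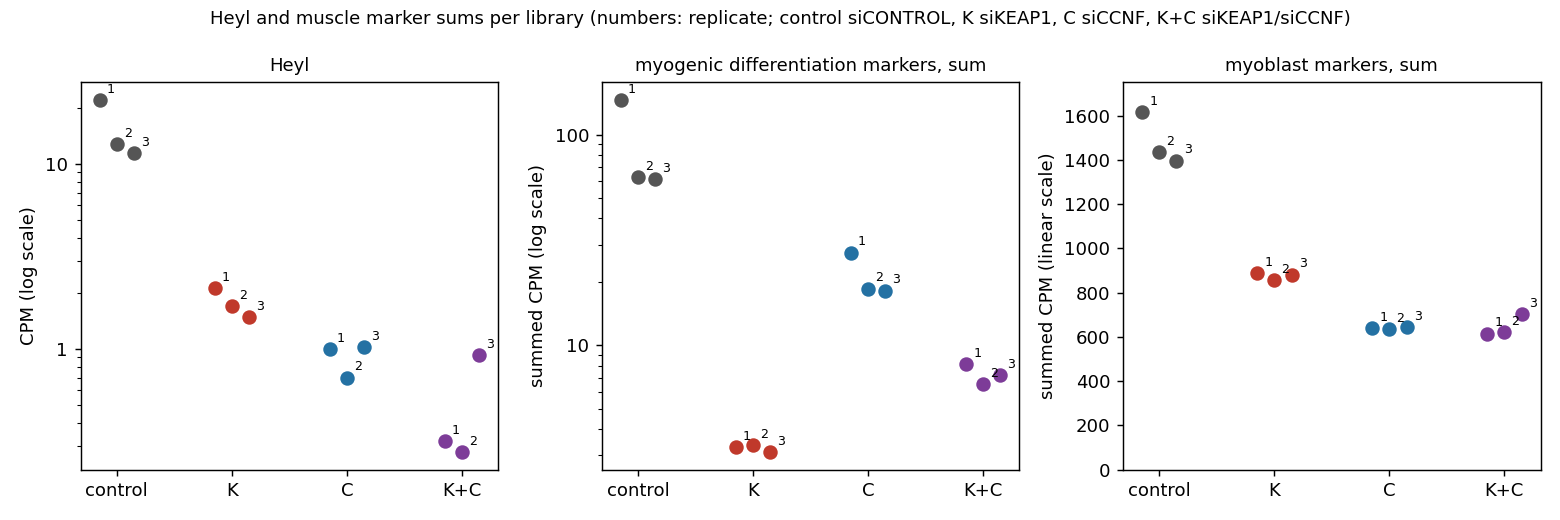
Heyl (left, CPM, log y axis), the summed CPM of 8 myogenic differentiation markers (middle, log y axis) and of 6 myoblast markers (right, linear y axis from 0) in the 12 libraries, numbered by replicate. Heyl and the myoblast sum are lower in the groups with siCCNF than in siKEAP1, and the differentiation sum is lowest in siKEAP1, at 3.11 to 3.36 CPM.

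Across the 12 libraries, which fall into 4 groups, the genes whose log2 CPM ran most closely with that of Heyl among 12840 genes of at least 1 CPM on average were Med28 (r = 0.994), Rcor2 (0.988), Xbp1 (0.987), Cers5 (0.986) and Mxra7 (0.982). Med28 encodes a Mediator subunit, Rcor2 a corepressor of the CoREST family and Xbp1 a transcription factor of the unfolded protein response. Of the other Notch genes, Hes1 had an r of 0.94 with Heyl (rank 114), Dll1 0.84 (rank 764) and Jag2 0.80 (rank 1056). Notch3 had 0.61, Notch1 0.52, Hey1 0.64 and Notch2 -0.078, and Jag1 ran the other way at -0.65. Of the muscle markers, the myoblast markers ranged from 0.85 (Pax7) to 0.97 (Des and Myf5), and the differentiation markers were spread wider, from 0.47 (Myh3), 0.50 (Actc1), 0.57 (Myog) and 0.60 (Acta1) to 0.89 (Mymk) and 0.90 (Tnnt3). The points share libraries and groups, so these are descriptions of likeness in these 12 libraries.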

How the data were processed

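Novogene prepared libraries from poly(A)-selected RNA, and sequenced and analysed them for the authors. The authors deposited 1 table with, per library, read counts per gene without normalization and FPKM values. It also holds the authors' own comparisons, which were not used. The submitters' notes name HISAT2 and GRCm39, but the coordinates in the table are those of GRCm38. The counting tool is not given in the sources used here, so the handling of reads shared by paralogs is not known. All 12 libraries were grouped by their labels.

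Counts were tested with edgeR 4.0.16 (R 4.3.3): filterByExpr, TMM, and a quasi-likelihood fit with 4 group means to all libraries. Standard errors are the absolute log2 fold change divided by the square root of F. P-values were adjusted by Benjamini-Hochberg over the 15122 genes tested, with a threshold of 0.05. CPM used TMM-scaled library sizes, and log2 CPM a prior count of 2. Replicates are labelled biological. Floors reflect counting error alone. The code was tested on simulated data.

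The genes, the wider pathway list (written by hand) and the marker lists were chosen with earlier results of these data known. Genes named from the pathway list are, per group, up to 3 with an adjusted p under 0.05 in siKEAP1/siCCNF against siKEAP1, a mean of at least 1 CPM and the largest change. Rbpj, Hes6, Notch4, Dner, Dll3, Dll4, Dlk1, Aph1b, the cell type markers and the genes ranked beside Heyl fall outside this rule and were named after their values were seen. The 5 genes most like Heyl were taken by Pearson r. Alternatives were DESeq2 1.42.0, total library sizes, no filter beyond 1 count, 10 counts in every library, a replicate block, limma 3.58.1 on log2(FPKM + 1), removal of a gene length trend (splines, 5 degrees of freedom), the compared groups only, and leaving out each library. Leaving out siCONTROL replicate 1 and siKEAP1/siCCNF replicate 3 together was chosen after seeing the data.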

Additional observations from a re-analysis of the deposited data

Results flagged for a closer look

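For 3 of the Notch genes the effect of siKEAP1 differed between CCNF-depleted and control cells by the interaction test of edgeR. This test includes the siCCNF and siCONTROL libraries that chose the set, so its p-values are not independent of that choice. The interaction on the log2 scale was -1.02 ± 0.26 for Jag1 (edgeR adjusted p = 0.0139), 0.51 ± 0.11 for Jag2 (edgeR adjusted p = 0.00643) and 0.89 ± 0.25 for Hes1 (edgeR adjusted p = 0.0245). The values for Jag1 and Jag2 passed under each of the 20 alternatives, with ranges of -1.14 to -0.63 and 0.43 to 0.63. The value for Hes1 ranged from 0.54 to 1.02 and its adjusted p reached 0.0638. The depletion of Keap1 mRNA also differed, to 14.4% of siCONTROL in control cells and to 28.4% of siCCNF in CCNF-depleted cells. Ccnf mRNA was at 25.3% of siCONTROL in siCCNF and at 41.2% of siKEAP1 in siKEAP1/siCCNF. The part of these differences in the 3 interactions was not tested.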

How the results depend on the processing

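Over 21 alternatives and all comparisons, 1075 of 1119 values of single Notch genes kept their side of the threshold (or, without a test, moved by less than the spread). Of the rest, 8 lost and 19 gained a call, 15 moved and 2 turned, which here means a change of sign with a call. Values that changed sign without a call are counted among the 1075. Jag1 in siKEAP1/siCCNF against siKEAP1, at -0.11 to 0.17, is an example. Leaving out siCONTROL replicate 1 and siKEAP1/siCCNF replicate 3 together turned Notch2 in siKEAP1 against siCONTROL (-0.23, with -0.23 to 0.11 over all settings that left out libraries) and Notch3 in the interaction (0.20, with -0.069 to 0.20), took the Notch genes past the threshold in siKEAP1/siCCNF against siCCNF from 0 to 5, and took the pathway genes to 31 (from 20) in siKEAP1/siCCNF against siKEAP1, 25 (from 16, with 12 to 19 when single libraries were left out) in siKEAP1 against siCONTROL and 3 (from 0) in siKEAP1/siCCNF against siCCNF. In siKEAP1/siCCNF against siCCNF, the Notch genes past the threshold were 2 with DESeq2, 1 with no filter, 1 with the length trend removed and 0 to 1 with single libraries left out. The pathway genes there were 1 with DESeq2, 1 with no filter, 2 with the length trend removed and 0 to 3 with single libraries left out. The pathway genes past the threshold in the interaction ranged from 7 to 11 with single libraries left out (15 without both libraries above), and were 7 without siKEAP1 replicate 2, siCCNF replicate 1 or siCCNF replicate 2. Samples with the same replicate number did not deviate together (r between -0.27 and 0.20 over 18 pairs, 4 over 0.1), and the replicate block gave 1 pathway gene in siKEAP1/siCCNF against siCCNF and kept every other count within 1.5 times. Heyl in siKEAP1/siCCNF against siKEAP1 was lost with limma on log2(FPKM + 1), had no value with 10 counts in every library, and its 8 to 21 counts in the double depletion limit its precision; the interaction has no value with the compared groups only. Except where a value above shows it, the cause was not tested.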
